A study of Homo sapiens with 8 samples.

Results

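The 10 genes described here encode the enzymes that make serine from glucose, move its one-carbon unit through folate and pass it on to S-adenosylmethionine, and they were taken by name: PHGDH, PSAT1, PSPH, SHMT1, SHMT2, MTHFD1, MTHFD2, MTHFD1L, MAT2A and AHCY. All 10 were found among the 58302 genes of the count table, and all 10 were among the 14133 genes with enough counts to test. They were read in DLD1 cells, a human colorectal cancer line, by RNA sequencing. OE-WT cells carried lentiviral wild-type TRMT6 and TRMT61A and CTRL cells carried the vector, with 2 libraries per group. The series text also speaks of lines with TRMT6 or TRMT61A alone, whereas each sample title names both genes, and the sources used here do not say whether a line is 1 clone. Gene counts do not separate the transgenes from the endogenous genes.

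PHGDH, PSAT1 and PSPH are the 3 steps of serine synthesis. Serine hydroxymethyltransferase, SHMT1 in the cytosol and SHMT2 in mitochondria, moves a carbon of serine onto tetrahydrofolate. In mitochondria MTHFD2 and MTHFD1L carry that carbon on to formate, and the trifunctional enzyme MTHFD1 takes up formate in the cytosol, where the carbon enters purines, thymidylate and methionine. MAT2A makes S-adenosylmethionine from methionine, and AHCY removes S-adenosylhomocysteine, which is left once a methyl group has been given away. TRMT6/61A, which writes N1-methyladenosine on tRNA, is one of the enzymes that draw on S-adenosylmethionine, and serine synthesis is often raised in tumours.

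On GRCh38, PHGDH (ENSG00000092621) lies on chromosome 1 from 119648411 to 119744218, PSAT1 (ENSG00000135069) on chromosome 9 from 78297125 to 78330093 and PSPH (ENSG00000146733) on chromosome 7 from 56011051 to 56051604. SHMT1 (ENSG00000176974) lies on chromosome 17 from 18327860 to 18363563 and SHMT2 (ENSG00000182199) on chromosome 12 from 57229573 to 57234935. MTHFD1 (ENSG00000100714) lies on chromosome 14 from 64388031 to 64463457, MTHFD2 (ENSG00000065911) on chromosome 2 from 74186172 to 74217565 and MTHFD1L (ENSG00000120254) on chromosome 6 from 150865679 to 151101887. MAT2A (ENSG00000168906) lies on chromosome 2 from 85539168 to 85545281 and AHCY (ENSG00000101444) on chromosome 20 from 34280268 to 34311802. PSPH, SHMT1 and AHCY are on the minus strand and the others on the plus strand.

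The promoters of the 3 enzymes whose mRNA was higher in OE-WT cells, SHMT1, MTHFD1 and MAT2A, are shown beside that of MTHFD1L, which did not pass the test and holds both motifs searched. Each is the stretch of 250 bases before the RefSeq start site on GRCh38.p14, 5′ to 3′ on the gene's own strand, at chr17:18363551-18363800 on the minus strand and chr14:64388103-64388352, chr2:85538918-85539167 and chr6:150866236-150866485 on the plus strand. Capitals mark the 2 motifs, the E-box CACGTG and TGATGNAA, a core of the element bound by ATF4 with C/EBP proteins.
SHMT1: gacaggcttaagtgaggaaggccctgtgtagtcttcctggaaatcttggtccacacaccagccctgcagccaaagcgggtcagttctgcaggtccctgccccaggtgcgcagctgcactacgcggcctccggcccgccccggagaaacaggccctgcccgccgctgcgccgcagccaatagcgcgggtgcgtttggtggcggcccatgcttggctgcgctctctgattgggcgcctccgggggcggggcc
MTHFD1: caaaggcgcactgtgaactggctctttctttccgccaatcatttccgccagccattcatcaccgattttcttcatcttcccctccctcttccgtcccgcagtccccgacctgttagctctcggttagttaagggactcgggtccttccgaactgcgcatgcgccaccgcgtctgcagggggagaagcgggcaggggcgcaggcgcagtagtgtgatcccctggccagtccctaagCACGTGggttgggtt
MAT2A: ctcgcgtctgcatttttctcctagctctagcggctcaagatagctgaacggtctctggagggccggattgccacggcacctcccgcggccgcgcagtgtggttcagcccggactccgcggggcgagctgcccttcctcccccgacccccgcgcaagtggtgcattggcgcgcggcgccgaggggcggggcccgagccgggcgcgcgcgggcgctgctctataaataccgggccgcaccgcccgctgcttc
MTHFD1L: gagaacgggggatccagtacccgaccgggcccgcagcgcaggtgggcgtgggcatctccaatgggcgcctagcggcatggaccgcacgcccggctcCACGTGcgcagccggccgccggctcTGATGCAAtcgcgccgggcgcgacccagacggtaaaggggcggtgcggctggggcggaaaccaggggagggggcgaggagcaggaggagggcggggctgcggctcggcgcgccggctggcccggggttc
The RefSeq table held a promoter for 8 of the 10 genes, that is for all but PSPH and SHMT2, with several start sites for MTHFD1L and AHCY. Both strands were searched over windows of 300 bases, 250 before the start and 50 after it. CACGTG was found for 2 of the 8 genes, MTHFD1 and MTHFD1L, and in 7.26% of the 35116 promoters of the table. TGATGNAA was found for 1 of the 8, MTHFD1L, and in 3.62% of all promoters. A gene was counted if any of its start sites matched, whereas the percentages count single promoters, so these are unlike measures. The E-box of MTHFD1 starts at position -15 from the start site. The motifs did not overlap each other, and these matches describe letters and not binding.

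Between 10327498 and 10460284 reads were counted on genes per OE-WT library and between 12063433 and 12379671 per CTRL library. Values are given as CPM, in which each count is relative to the library size scaled by the TMM method, and each sentence of values lists replicates 1 and 2 in order. TRMT6 had 211 and 181 CPM in OE-WT cells and 52.6 and 55.4 in CTRL cells, and TRMT61A had 138 and 130 against 58.9 and 56.8, so both were higher in every OE-WT library. Of 10 markers of colorectal epithelium 9 passed the filter on low counts, and 2 of them were higher and 3 lower in OE-WT cells. KRT20, a keratin of mature colonocytes, fell from 27.1 and 25.3 CPM in CTRL to 8.36 and 9.93 in OE-WT cells (log2 fold change -1.52, edgeR adjusted p = 7.03e-08) and CDH1, E-cadherin, fell by 0.29 on the log2 scale. The keratins KRT8 and KRT18 were higher, by 0.25 and 0.30, and KRT19 was lower, at -0.19, but these 3 calls did not hold under all alternatives. The part of these markers in the results for the members was not tested. Of 14 markers of fibroblasts, endothelium and immune cells 4 passed. The summed level of all 14 was 6.88 to 8.16 CPM in OE-WT and 7.63 to 10.6 in CTRL cells. COL1A2, COL3A1, DCN, CDH5 and CD3E were at 0 in all 4 libraries. VWF, an endothelial gene named after its values were seen, was called lower on few reads, 5 and 6 with OE-WT and 30 and 14 with CTRL, and lost the call without CTRL replicate 1 (edgeR adjusted p = 0.395) and without OE-WT replicate 1 (edgeR adjusted p = 0.0970).

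SHMT1, MTHFD1 and MAT2A rose in OE-WT cells, each by about the same amount, with fold changes of 1.31, 1.33 and 1.32. The other 7 enzymes, among them all 3 of serine synthesis and the 3 mitochondrial folate enzymes of the list, did not pass the test, and none fell. At a Benjamini-Hochberg adjusted p below 0.05 (edgeR, quasi-likelihood), 3 of the 10 members were higher. Among all genes tested 9.44% were called higher, 11.6% lower and 21.1% in either direction. All 10 had a positive log2 fold change, as did 7229 of the 14133 genes tested. The median of the 10 was 0.15, whereas the median over all genes tested was 0.010. With library size only in place of TMM, PHGDH, PSPH, MTHFD2 and MTHFD1L were slightly negative. None of the 10 also passed an absolute log2 fold change of 1, a threshold met with an unadjusted p below 0.05 by 3.15% of all genes. At an unadjusted p below 0.05 alone 6 members were higher, where 16.4% of all genes were higher and 33.8% passed in either direction. DESeq2's Wald test called the same 3 members at an adjusted p below 0.05. With 2 libraries against 2, an exact permutation test cannot give a two-sided p below 0.333, so the p-values rest on the model fitted across genes. In a bulk sample, more cells that express a gene and more mRNA per cell cannot be told apart.

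**Figure D1:**
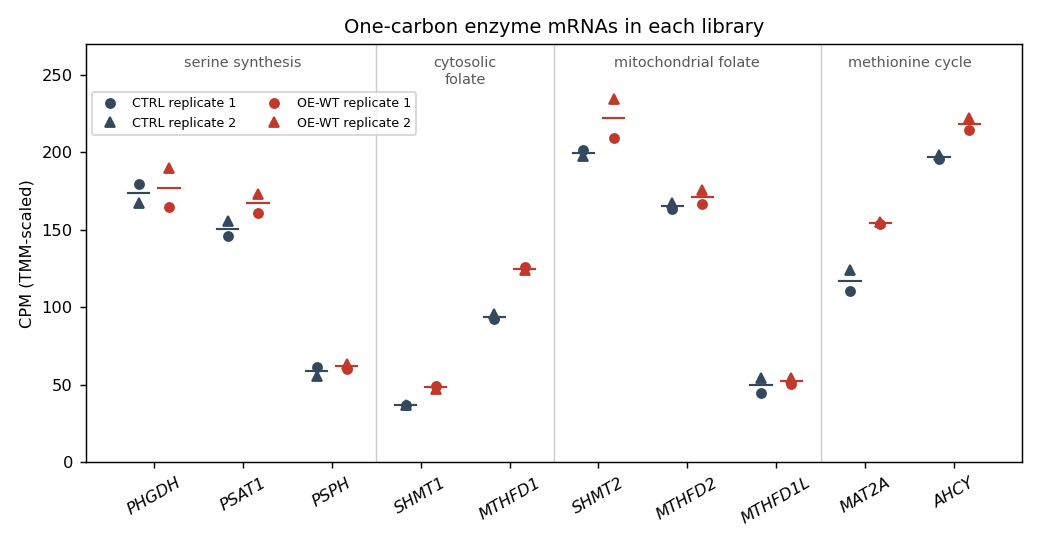
Level of each enzyme's mRNA in CPM (y axis, linear from 0) in the 2 CTRL and 2 OE-WT libraries, grouped by pathway step (x axis); points are libraries and bars are group means. For SHMT1, MTHFD1 and MAT2A both OE-WT points lie well above both CTRL points, while those of PHGDH, PSPH, MTHFD2 and MTHFD1L overlap.

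Among the cytosolic folate enzymes, MTHFD1 had 126 and 124 CPM in OE-WT cells and 92.4 and 95.5 in CTRL cells. Both OE-WT libraries lay above both CTRL libraries, and the libraries of a group differed by far less than the groups. The means were 125 ± 1.48 and 93.9 ± 2.15 (SD, n = 2 each), and OE-WT was higher by 0.41 ± 0.067 on the log2 scale (± SE, edgeR quasi-likelihood adjusted p = 0.00014). SHMT1 had 49.2 and 47.6 CPM in OE-WT cells against 37.2 and 36.9 in CTRL cells, again without overlap. Its means were 48.4 ± 1.13 and 37.0 ± 0.269 (SD, n = 2 each), a log2 difference of 0.38 ± 0.083 (± SE, edgeR adjusted p = 0.00201). Over the 14 alternatives of normalization, test, filter and libraries its adjusted p reached 0.0435 at most, with DESeq2's Wald test, and that of MTHFD1 reached 0.00288. Leaving out any 1 library, the log2 fold change ranged from 0.39 to 0.44 for MTHFD1 and from 0.37 to 0.40 for SHMT1.

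MAT2A, the S-adenosylmethionine synthetase of tissues other than liver, had 154 and 155 CPM in OE-WT cells and 110 and 124 in CTRL cells. The OE-WT libraries lay close together and above both CTRL libraries, which differed more from each other. The log2 difference was 0.40 ± 0.070 (± SE, edgeR quasi-likelihood adjusted p = 0.000301), 0.32 without CTRL replicate 1 and 0.49 without CTRL replicate 2. AHCY, the next enzyme of the cycle, had 214 and 222 CPM in OE-WT cells and 196 and 198 in CTRL cells. The groups of AHCY did not overlap, its log2 fold change was 0.15 (95% interval 0.017 to 0.28), and it did not pass the test (edgeR adjusted p = 0.102). With a GC trend removed per library, AHCY had a log2 fold change of 0.21 and an adjusted p of 0.0264 from edgeR.

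For the serine synthesis enzymes, PHGDH, the entry step, had 165 and 190 CPM in OE-WT cells and 180 and 168 in CTRL cells. Its OE-WT libraries lay on either side of the CTRL libraries, and its log2 fold change was 0.029 (95% interval -0.12 to 0.18, edgeR adjusted p = 0.816). PSAT1, the aminotransferase, had 161 and 173 CPM against 146 and 156, without overlap, and did not pass the test, with a log2 fold change of 0.15 (95% interval 0.0066 to 0.29, edgeR adjusted p = 0.130). PSPH, the phosphatase, had 60.5 and 63.8 CPM against 61.6 and 55.8, with a log2 fold change of 0.082 (95% interval -0.081 to 0.25, edgeR adjusted p = 0.498). The upper ends of the intervals correspond to a fold change of 1.13 for PHGDH, 1.22 for PSAT1 and 1.19 for PSPH.

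For the mitochondrial folate enzymes, SHMT2 had 209 and 235 CPM in OE-WT cells and 202 and 198 in CTRL cells. The groups did not overlap, but OE-WT replicate 1 lay near the CTRL libraries, and the log2 fold change was 0.15 (95% interval 0.0099 to 0.29, edgeR adjusted p = 0.121). Without OE-WT replicate 1 it was 0.24 (adjusted p = 0.0324 from edgeR), without OE-WT replicate 2 it was 0.057 (adjusted p = 0.697), and with a GC trend removed per library it was 0.22 (adjusted p = 0.0256). MTHFD2 had 167 and 176 CPM against 163 and 167, a log2 fold change of 0.050 (95% interval -0.086 to 0.19, edgeR adjusted p = 0.636). MTHFD1L had 50.9 and 54.2 CPM against 44.8 and 54.8, a log2 fold change of 0.079 (95% interval -0.11 to 0.27, edgeR adjusted p = 0.587). The groups of MTHFD2 and of MTHFD1L overlapped.

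**Figure D2:**
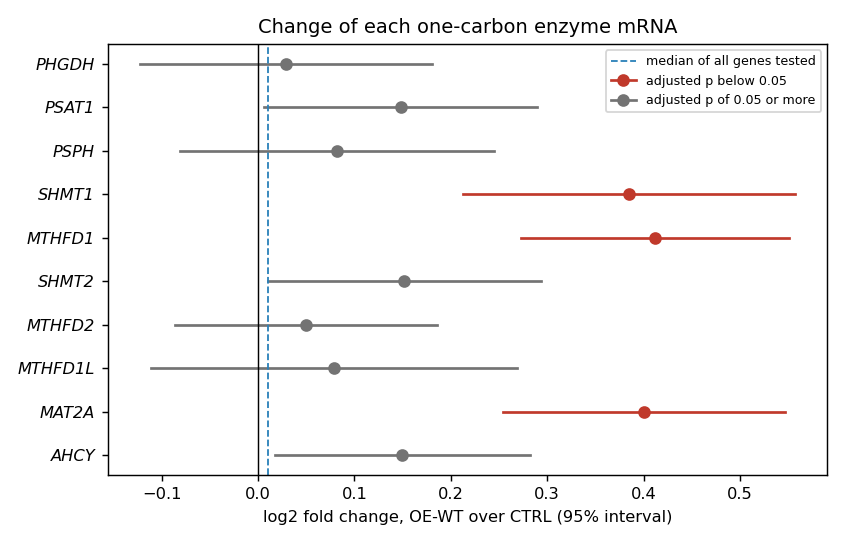
Log2 fold change of each enzyme, OE-WT over CTRL (x axis), with its 95% interval from edgeR's quasi-likelihood fit; red marks an adjusted p below 0.05 and the dashed line is the median of all genes tested. SHMT1, MTHFD1 and MAT2A lie between 0.38 and 0.41, and the other 7 between 0.029 and 0.15.

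The groups of 6 members did not overlap, all with OE-WT higher, where 60.2% of all genes tested did not overlap, 29.9% with OE-WT higher and 30.2% with OE-WT lower. Before scaling, the 10 genes together took up 0.129% and 0.142% of each OE-WT library and 0.128% and 0.128% of each CTRL library. With library size only in place of the TMM factors the median of all genes moved from 0.010 to -0.082 and that of the members from 0.15 to 0.058. A change of scaling moves all genes by nearly the same amount, so the distance of 0.14 between the medians could hardly change. With library size only MTHFD1, MAT2A and SHMT1 had log2 fold changes of 0.32, 0.31 and 0.29 and still passed the test. PHGDH, PSPH, MTHFD2 and MTHFD1L turned slightly negative, at -0.061, -0.0093, -0.041 and -0.012.

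The ratio of a mitochondrial to a cytosolic enzyme within a library does not depend on scaling. SHMT2 had 4.26 and 4.94 times the counts of SHMT1 with OE-WT and 5.42 and 5.37 times with CTRL. MTHFD2 had 1.32 and 1.42 times the counts of MTHFD1 with OE-WT and 1.77 and 1.75 times with CTRL. MTHFD1L had 0.404 and 0.437 times the counts of MTHFD1 with OE-WT and 0.484 and 0.574 times with CTRL. In all 3 pairs both OE-WT ratios were below both CTRL ratios. The mean log2 ratio differed by -0.24 for SHMT2/SHMT1, -0.36 for MTHFD2/MTHFD1 and -0.33 for MTHFD1L/MTHFD1, and the pooled SD between libraries was 0.11, 0.050 and 0.14. The difference for SHMT2/SHMT1 was -0.13 without OE-WT replicate 1 and -0.34 without OE-WT replicate 2, and that for MTHFD1L/MTHFD1 was -0.45 without CTRL replicate 1 and -0.21 without CTRL replicate 2. Each difference had an exact two-sided permutation p of 0.333, the smallest that 2 against 2 libraries allow, so none can reach significance by that test. The last 2 pairs share MTHFD1 and are not independent. Each difference is close to the log2 fold change of the mitochondrial enzyme less that of the cytosolic enzyme. SHMT1 and MTHFD1 were called higher and SHMT2, MTHFD2 and MTHFD1L were not, so the lower ratios restate those values and are not a separate result. They do not stand for all mitochondrial folate enzymes. MTHFD2L, a mitochondrial enzyme outside the members, was called higher, with a log2 fold change of 0.74 (edgeR adjusted p = 0.000104).

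**Figure D3:**
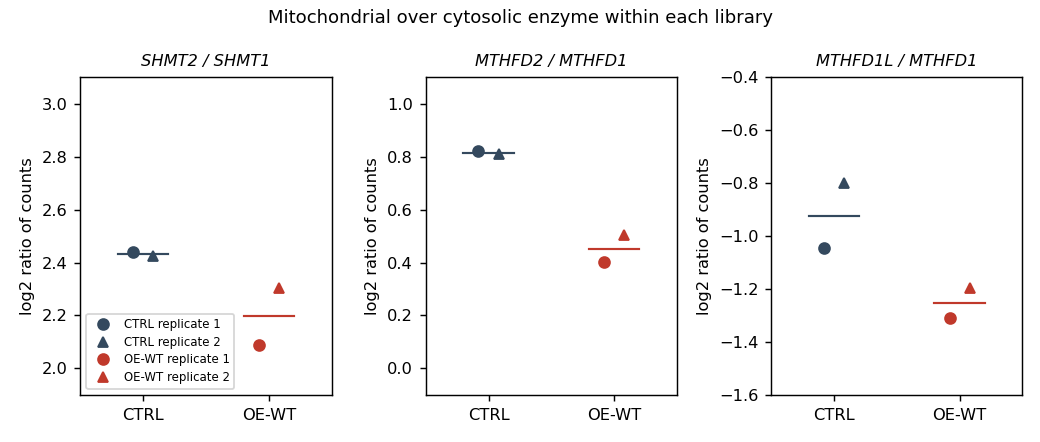
Log2 ratio of counts of the mitochondrial over the cytosolic enzyme within each library (y axis; each panel spans the same range of 1.2), for CTRL and OE-WT (x axis); points are libraries and bars are group means. In each of the 3 panels both OE-WT libraries lie below both CTRL libraries, which restates the changes of the single enzymes.

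Levels of different genes were compared per kilobase of the canonical transcript. Their order therefore rests on that choice of length, and other isoforms were not considered. In CTRL cells PHGDH, SHMT2 and AHCY stood highest, at 93.1, 92.7 and 91.6 CPM per kilobase, and neighbours in this order overlapped between libraries. PSAT1 followed at 68.4, MAT2A at 41.6 and MTHFD2 at 37.5 CPM per kilobase, without overlap. MTHFD1 at 29.8 and PSPH at 29.7 overlapped, as did SHMT1 at 14.7 and MTHFD1L at 14.4. In CTRL cells SHMT1 was thus below its mitochondrial counterpart SHMT2, and MTHFD1 was below MTHFD2 and above MTHFD1L. In OE-WT cells MTHFD1 had 40.0 and 39.3 CPM per kilobase and MTHFD2 37.8 and 39.9, so these 2 overlapped there.

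Some members share sequence or position with other genes. The pseudogene PSPHP1 (chromosome 7, 55764797 to 55773288) drew 57 and 70 reads with OE-WT and 64 and 65 with CTRL, beside 601 and 649 and 793 and 687 for PSPH, and reads may be split between the 2. Every other annotated pseudogene of the members had at most 1 count in a library. With pseudogene counts added, PSPH had a log2 fold change of 0.10 and the same 3 members were called. On the opposite strand, exons of GGCX share 562 bases with MAT2A, those of SMCR8 share 197 bases with SHMT1, and those of the long noncoding gene ENSG00000272909 share 1556 bases with MTHFD1. GGCX drew 856 and 905 reads with OE-WT and 1216 and 1122 with CTRL, and ENSG00000272909 had 122 and 119 against 130 and 115. The labels describe strand-specific libraries but the sources do not give the strand setting of the counting, so reads in the shared bases may not be separate.

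The other genes of the pathway, 52 in 3 lists, showed 8 that were higher and 1 that was lower of 36 tested at an edgeR adjusted p below 0.05. In the folate list 5 of 14 tested genes were higher and 1 was lower, with a median log2 fold change of 0.15. MTHFD2L, a mitochondrial relative of MTHFD2, had 25.9 and 23.9 CPM in OE-WT and 15.2 and 14.6 in CTRL cells, a log2 difference of 0.74 ± 0.12 (± SE, adjusted p = 0.000104). GART and ATIC, which place the formyl group of folate into purines, had log2 fold changes of 0.35 (adjusted p = 0.00106) and 0.26 (adjusted p = 0.00835). TYMS, which makes thymidylate, had a log2 fold change of 0.27 (adjusted p = 0.0048). FOLR1, a folate receptor, fell from 9.17 and 8.20 CPM in CTRL to 3.93 and 3.73 in OE-WT cells, a log2 fold change of -1.18 (adjusted p = 0.000191). MTHFD2L, GART and FOLR1 passed under all 14 alternatives, whereas TYMS and ATIC did not pass with library size only (edgeR adjusted p = 0.109 and 0.148). ATIC also did not pass with DESeq2's Wald test (adjusted p = 0.0622). Both also lost the call when a library was left out, TYMS without CTRL replicate 2 (log2 fold change 0.23) and ATIC without OE-WT replicate 1 (0.22).

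In the glycine cleavage and serine list 2 of 8 tested genes were higher and none was lower, with a median log2 fold change of -0.018. They were SRR, serine racemase (0.39, edgeR adjusted p = 0.0124), and DLD, a dehydrogenase shared by several mitochondrial complexes (0.36, edgeR adjusted p = 0.0314). SRR kept the call under 9 and DLD under 8 of 14 alternatives. Both lost it with DESeq2, with library size only, with a GC trend removed and without CTRL replicate 1, where the edgeR adjusted p was 0.126 and 0.336. SRR also lost it without OE-WT replicate 2 (edgeR adjusted p = 0.0545), and DLD without OE-WT replicate 1 (edgeR adjusted p = 0.114) and with no filter beyond 1 count (edgeR adjusted p = 0.102). In the methionine list 1 of 14 tested genes was higher, AHCYL1, a relative of AHCY (0.24, edgeR adjusted p = 0.0139), and the median was 0.11. AHCYL1 kept that call under 8 of 14 alternatives and lost it with library size only (edgeR adjusted p = 0.202), DESeq2, no filter beyond 1 count, and without OE-WT replicate 1, CTRL replicate 1 or CTRL replicate 2 (edgeR adjusted p = 0.0702, 0.0577 and 0.0568). MAT2B, the regulatory partner of MAT2A, had 49.8 and 52.3 CPM against 48.2 and 49.3, a log2 fold change of 0.067 (edgeR adjusted p = 0.596). METTL16, which methylates MAT2A mRNA, had 23.3 and 26.0 CPM against 20.6 and 22.0, a log2 fold change of 0.21 (edgeR adjusted p = 0.180). MTR, methionine synthase, drew few reads, 78 and 41 with OE-WT and 63 and 46 with CTRL, and its groups overlapped. CBS and BHMT2 had 0 counts in all 4 libraries. A count of 0 allows up to 3 counts, or 0.242 to 0.290 CPM of the unscaled totals, which covers counting error only. Whether reads of CBS and BHMT2 were lost to similar sequences elsewhere in the genome was not checked, so 0 counts do not show absence. Over the 3 lists together, library size only gave 2 higher and 2 lower genes, DESeq2's Wald test 3 and 1, and the fit without CTRL replicate 1 gave 4 and 1.

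Several members are textbook targets of ATF4, the transcription factor of the amino acid response, and of MYC. ATF4 had 437 and 446 CPM in OE-WT and 504 and 497 in CTRL cells, a log2 fold change of -0.18 (edgeR adjusted p = 0.0470), and this call was lost under 8 of 14 alternatives. Of 21 tested genes of a list of ATF4 and its targets outside the members, 2 were higher and 5 were lower, with a median of -0.16; library size only gave 0 and 10 and DESeq2 gave 0 and 2. PCK2, mitochondrial phosphoenolpyruvate carboxykinase, fell by 0.61 on the log2 scale and SLC3A2, a subunit of amino acid exchangers, fell by 0.45, while WARS1, a tRNA synthetase, rose by 0.24. DDIT4, an inhibitor of mTORC1, had a log2 fold change of -0.30 (edgeR adjusted p = 0.0146) and ATF5, a factor related to ATF4, one of 0.24 (edgeR adjusted p = 0.0449). STC2, a secreted glycoprotein named here after its values were seen, was the remaining gene called lower, at -1.36, and DESeq2 gave no adjusted p for STC2. The calls of WARS1 and ATF5 did not hold with library size only (edgeR adjusted p = 0.215 and 0.270). Those of WARS1, ATF5 and DDIT4 did not hold with DESeq2's Wald test (adjusted p = 0.0753, 0.282 and 0.119). DDIT4 also lost its call with a GC trend removed (edgeR adjusted p = 0.0786). It lost it too without OE-WT replicate 1 (log2 fold change -0.19) and without CTRL replicate 1 (-0.22). WARS1 and ATF5 lost theirs under further alternatives. MYC had 110 and 117 CPM against 107 and 116, which overlapped. Of the 10 genes of the MYC list 4 were higher and none was lower: PPAT (0.89) and PAICS (0.32) of purine synthesis and the nucleolar NCL (0.62) and NOP56 (0.39). The part of ATF4 and MYC in the results for the members was not tested.

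Genes of DNA replication, which draws on nucleotides made with folate, were higher too. Of 20 genes tested 15 were higher and none was lower at an adjusted p below 0.05 from edgeR, with a median log2 fold change of 0.32; library size only gave 10 higher and a median of 0.23. Among them RRM2, a subunit of ribonucleotide reductase, had 197 and 193 CPM in OE-WT and 135 and 142 in CTRL cells, and MCM2, of the replicative helicase, had 171 and 175 against 124 and 127. POLA1 (0.87), MCM6 (0.54), MCM3 (0.50) and CDC45 (0.49) were the others of the 6 with the largest change. POLA1 did not pass with DESeq2's Wald test (adjusted p = 0.102). The part of DNA replication genes in the results for SHMT1, MTHFD1 and MAT2A was not tested. Of 6 tested methyltransferases that use S-adenosylmethionine on small molecules, GAMT, which makes creatine, was lower, with 2.42 and 3.54 CPM against 6.37 and 5.76 (log2 fold change -1.02, edgeR adjusted p = 0.00342), and none was higher. DESeq2 gave no adjusted p for GAMT.

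The study asks about codons read by tRNAs with N1-methyladenosine, so the codons of the members were counted in their canonical coding sequences. The codons GAG and GAC together made up 9.49% of AHCY, the highest of the 10, and 3.14% of MTHFD2, the lowest, where the median over 11616 coding genes tested was 6.43%. GAC alone made up 0.286% of the 350 codons of MTHFD2. SHMT1, MTHFD1 and MAT2A had 7.25%, 5.24% and 5.57% for the 2 codons, on either side of that median. The paper also names tRNA-Ala-TGC and tRNA-Leu-CAA, which read GCA and TTG, with medians of 1.53% and 1.22%. For these codons MTHFD2 had 3.43% and 2.0%, and AHCY had 0.694% and 0.463%. SHMT1 had 1.86% and 0.828%, MTHFD1 had 2.78% and 1.28%, and MAT2A had 1.27% and 1.01%. The paper found no simple linear relation of GAG and GAC frequency to the change in translation efficiency. It proposes that the effect is selective for genes such as ARG2. Ribosome profiling was not analysed here, and the counts measure mRNA and not translation.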

How the data were processed

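RNA sequencing of OE-WT and CTRL DLD1 cells gave 4 libraries, 2 per group, and the labels list 2 lanes for each. The deposited table holds raw counts per gene, 1 column per library and 0 further columns of per-sample values. The authors' methods describe ribosomal RNA removal, Cutadapt, HISAT2 on GRCh38 and HTSeq with 3 biological replicates, whereas the labels describe poly(A) selection, and the submitters' processing notes name HISAT2 2.2.1 and featureCounts 2.0.0. The annotation release used for counting is not given in the sources used here. Nothing in the labels says that libraries of a group came from separate cultures, so p-values measure the spread between these libraries, which may be technical. Libraries of a group differed by more than sampling noise (chi-square per degree of freedom 4.09 and 4.53).

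GENCODE 44 gave names for 57532 identifiers. Counts were filtered by group (edgeR 4.0.16, R 4.3.3, minimum count 10), normalized by TMM and tested with the quasi-likelihood test, adjusted by the Benjamini-Hochberg method. Standard errors are the log2 fold change over the square root of F. The steps were tested on simulated counts. The alternatives were RLE factors, library size only, DESeq2 1.42.0, exact and likelihood ratio tests, other filters, a replicate block, each library left out (the lone library of an arm is assumed to vary like the other group), a GC trend (lowess, span 0.3) and added pseudogene counts. The members and lists were chosen with earlier results of these data known. Named genes are the members, TRMT6, TRMT61A, up to 6 called genes per list with the largest change and a mean of at least 50 counts, and TYMS, MTR, MAT2B, METTL16, ATF4 and MYC; some genes of the lists count in the totals and are not reported here by name. Overlapping genes, genes at 0 and markers are named besides.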

Additional observations from a re-analysis of the deposited data

How the results depend on the processing

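MTHFD1, MAT2A and SHMT1 kept their direction and an adjusted p below 0.05 under all 14 alternatives. With library size only, 4 other members changed sign without passing the test (PHGDH -0.061, PSPH -0.0093, MTHFD2 -0.041, MTHFD1L -0.012), the median of the members was 0.058, and 4 of the other pathway genes were called in place of 9. The share of higher calls among all genes then went from 44.8% (1334 genes against 1642) to 23.0% (733 against 2451). Removing a GC trend called 5 members and gave MTHFD2 a log2 fold change of -0.057. DESeq2's Wald test called 1220 genes in place of 2976 at an adjusted p below 0.05, 288 in place of 445 past both thresholds, and 4 other pathway genes. No filter beyond 1 count gave 738 genes past both thresholds and at least 10 counts in every library gave 216. The cause of these differences was not tested. Leaving out 1 library at a time, the genes called ranged from 1903 to 2852, the other pathway genes from 5 to 9, the median of the members from 0.070 to 0.19, PHGDH from -0.087 to 0.13 and MTHFD1L from -0.062 to 0.23; PHGDH was -0.017 without CTRL replicate 2. The deviations of same-numbered libraries were little correlated (-0.068), which shows no pairing but, with 2 libraries per group, cannot exclude it. A replicate block called 2658 genes and 3 members. In these libraries 16 of the 52 other pathway genes had too few counts to be tested.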
